A study of Mus musculus with 16 samples.

Results

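Bile acid synthesis, conjugation and transport in mouse liver was followed through 38 genes, which are 38 of the 18820 genes represented on the arrays. A gene entered through probe sets annotated with exactly 1 symbol, and where a gene had several, the one with the largest average signal over the 16 arrays was used. All 38 genes were found, and only Hsd3b7 had more than 1 such probe set. No member was removed by a filter on low signal, since none was applied.

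RNA of whole liver from 16 male mice aged 7 days was measured, 1 array per animal and 4 animals per genotype, on a mixed C57/BL6 - SV129Ola background. WT animals were littermates with loxP-flanked alleles and no Cre; which of the alleles each one carried is not given in the sources used here. In TRAF2/Casp-8LPC-KO mice (here TRAF2/Casp8 KO), alfp-Cre deletes Traf2, an adaptor of TNF receptor signalling, and Casp8, the protease that starts death-receptor apoptosis and restrains necroptosis, in liver parenchymal cells. TRAF2/Casp-8LPC-KO/RIPK3-/- mice (RIPK3 triple KO) carry in addition a constitutive deletion, in all cells, of Ripk3, the kinase that drives necroptosis. TRAF2/Casp-8/IKKbetaLPC-KO mice (IKKβ triple KO) carry in addition a conditional deletion of Ikkβ, which activates canonical NF-κB, through the same Cre. The series title names NF-κB, necroptosis and liver cancer as its subject. Whole liver holds cells in which this Cre is not active, and fewer cells of a type and less RNA per cell cannot be told apart in such samples.

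Bile acids are made in hepatocytes from cholesterol. The classic pathway starts with Cyp7a1 and the alternative pathway with Cyp27a1; the side chain is then shortened in peroxisomes, and Baat joins the product to taurine or glycine before the canalicular pump Abcb11 moves it into bile. Bile acids returning to the liver bind FXR (Nr1h4), which induces SHP (Nr0b2), a repressor of LRH-1 (Nr5a2) and of bile acid synthesis, while FGF15 from the gut acts on hepatocytes through Fgfr4 and Klb.

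The signals of the 4 targeted genes were checked first. Casp8, Ripk3 and Ikbkb lay lower in the genotypes labelled as lacking them: Casp8 at 9.87 ± 0.14 in WT (mean log2 signal ± SD, n = 4) against means of 8.95, 8.69 and 8.88 in the 3 knockout genotypes, Ripk3 at 4.21 in RIPK3 triple KO against 5.84 to 6.03 elsewhere, and Ikbkb at 7.19 in IKKβ triple KO against 7.64 to 7.94. Traf2 went against its label, with 6.28 ± 0.08 in WT and 7.30 ± 0.16, 7.32 ± 0.15 and 6.89 ± 0.02 in the arrays labelled TRAF2/Casp8 KO, RIPK3 triple KO and IKKβ triple KO; where its probes lie relative to the deleted part is not known here, so a genotype name below stands for the arrays so labelled. The mean level of 10 hepatocyte markers lay between 12.09 and 12.49 on all 16 arrays and overlapped between the genotypes. Array names carry a letter and a number: WT and IKKβ triple KO have the number 5 and the others 7, and WT and RIPK3 triple KO have the letters A to D and the others E to H, so in every comparison genotype and this code cannot be told apart. TRAF2/Casp8 KO replicate 4 alone has another name prefix, and WT replicate 1 had the lowest array weight, 0.461; both were kept.

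Promoter sequences are shown for some of the genes on which the results turn or which the pathway is known for. RefSeq promoter windows (GRCm38.p6, 250 bases before to 50 after a transcript start) were matched by symbol for 28 of the 38 genes, in 34 windows. The 10 genes without a window were Baat, Cyp7a1, Cyp7b1, Cyp39a1, Amacr, Hsd17b4, Slc27a5, Abcc3, Abcc6 and Atp8b1. These were not searched for motifs. Abcg8 and Abcg5 together form the canalicular sterol exporter, and their windows overlap by 209 bases. In the window of Abcg8 capitals run from the Abcg5 start, read leftwards, to the Abcg8 start, read rightwards. The starts lie 110 bases apart. In the window of Nr5a2 the capitals mark the nuclear receptor motif AGGTCA at position -64, and in that of Nr0b2 the TATA box TATAAA at position -28, both counted from the transcript start. In the window of Abcb11 they mark 2 such motifs that face each other with 1 base between them (IR-1, the element that FXR binds), with 1 mismatch, at position -63.
Abcg8, chr17:84682871-84683170, plus strand: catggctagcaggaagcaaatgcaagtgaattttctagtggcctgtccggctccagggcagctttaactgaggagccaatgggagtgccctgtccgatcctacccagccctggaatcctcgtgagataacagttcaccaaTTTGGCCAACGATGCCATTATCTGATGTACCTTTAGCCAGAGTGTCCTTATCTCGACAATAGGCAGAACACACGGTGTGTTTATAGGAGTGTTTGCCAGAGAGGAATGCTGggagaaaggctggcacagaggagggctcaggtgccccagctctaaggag
Nr5a2, chr1:136960399-136960698, minus strand: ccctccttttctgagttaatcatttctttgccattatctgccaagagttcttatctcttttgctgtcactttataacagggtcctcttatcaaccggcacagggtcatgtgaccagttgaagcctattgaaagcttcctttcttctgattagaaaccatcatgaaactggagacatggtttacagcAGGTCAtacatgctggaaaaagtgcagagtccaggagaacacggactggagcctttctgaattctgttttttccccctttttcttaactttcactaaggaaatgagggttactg
Nr0b2, chr4:133553126-133553425, plus strand: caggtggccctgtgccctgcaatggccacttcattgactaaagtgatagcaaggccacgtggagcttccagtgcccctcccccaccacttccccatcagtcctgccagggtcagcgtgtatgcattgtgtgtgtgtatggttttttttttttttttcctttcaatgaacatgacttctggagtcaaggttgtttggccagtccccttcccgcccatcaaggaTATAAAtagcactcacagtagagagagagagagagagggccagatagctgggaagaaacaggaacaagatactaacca
Abcb11, chr2:69342567-69342866, minus strand: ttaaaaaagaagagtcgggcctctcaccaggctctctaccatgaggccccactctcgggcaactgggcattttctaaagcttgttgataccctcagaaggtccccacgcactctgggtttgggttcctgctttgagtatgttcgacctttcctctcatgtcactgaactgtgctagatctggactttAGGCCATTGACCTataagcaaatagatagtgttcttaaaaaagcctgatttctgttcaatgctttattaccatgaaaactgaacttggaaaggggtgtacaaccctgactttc

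All motifs were searched on both strands. An IR-1 with at most 1 mismatch was found in the window of Abcb11 alone among the 28 genes and in 0.0822% of all 32851 windows of this length. AGGTCA alone, which overlaps the IR-1 in Abcb11, was found in 10 of the 28 genes, among them Scp2, Slc10a1, Nr1h4 and Nr5a2. That is 10 of the 34 member windows, against 16.3% of all windows. TATAAA was found in 7 genes (Cyp8b1, Slc10a1, Abcg5, Abcg8, Nr0b2, Nr5a2 and Ephx1), in 7 of 34 member windows and in 13.6% of all windows. The copy in the Abcg5 and Abcg8 windows is the same 6 bases. The NF-κB consensus motif was found in Hsd3b7, Acox2 and Fgfr4, in 3 of 34 member windows and in 8.46% of all windows. A pair of AGGTCA in the same direction with 1 base between them (DR-1), with at most 1 mismatch, and the LRH-1 site, which is AGGTCA with TCA before it, were found in 0 member windows and in 0.554% and 0.423% of all windows. These matches describe letters in short windows and say nothing of binding.

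Few of the 38 genes passed the adjusted threshold in any 1 comparison, and Baat showed the largest difference. In TRAF2/Casp8 KO against WT, 5 of 38 passed the threshold (adjusted p at most 0.05 in limma, over all 35556 probe sets): Baat and Nr5a2 rose, and Scp2, Abcg5 and Nr0b2 fell. Over all 18820 genes 3.31% passed, 2.17% higher and 1.14% lower. An unadjusted p at most 0.05 in limma was reached by 17 of 38 (44.7%, against 16.4% of all genes). Adding the Ripk3 deletion to TRAF2/Casp8 KO took 0 of 38 past the threshold in limma (0.329% of all genes), and 13 of 38 had an unadjusted p at most 0.05 (34.2%, against 11.1% of all genes). Adding the Ikkβ deletion took 1 of 38 past it, Baat, which fell (1.02% of all genes, 0.903% lower), and 11 of 38 had an unadjusted p at most 0.05 (28.9%, against 10.7% of all genes). RIPK3 triple KO stood above WT in 3 of 38, Cyp7b1, Baat and Nr5a2 (3.11% of all genes, 1.94% higher), with 11 of 38 at an unadjusted p at most 0.05 (28.9%, against 15.6% of all genes). IKKβ triple KO differed from WT in 0 of 38 in limma (0.0372% of all genes), with 5 of 38 at an unadjusted p at most 0.05 (13.2%, against 6.45% of all genes). Between the triple knockouts, Baat and Nr5a2 were lower with the Ikkβ deletion, 2 of 38 (2% of all genes, 1.38% lower), and 10 of 38 had an unadjusted p at most 0.05 (26.3%, against 16.7% of all genes). Comparisons that use the same genotype share its 4 arrays and are not independent.

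**Figure D1:**
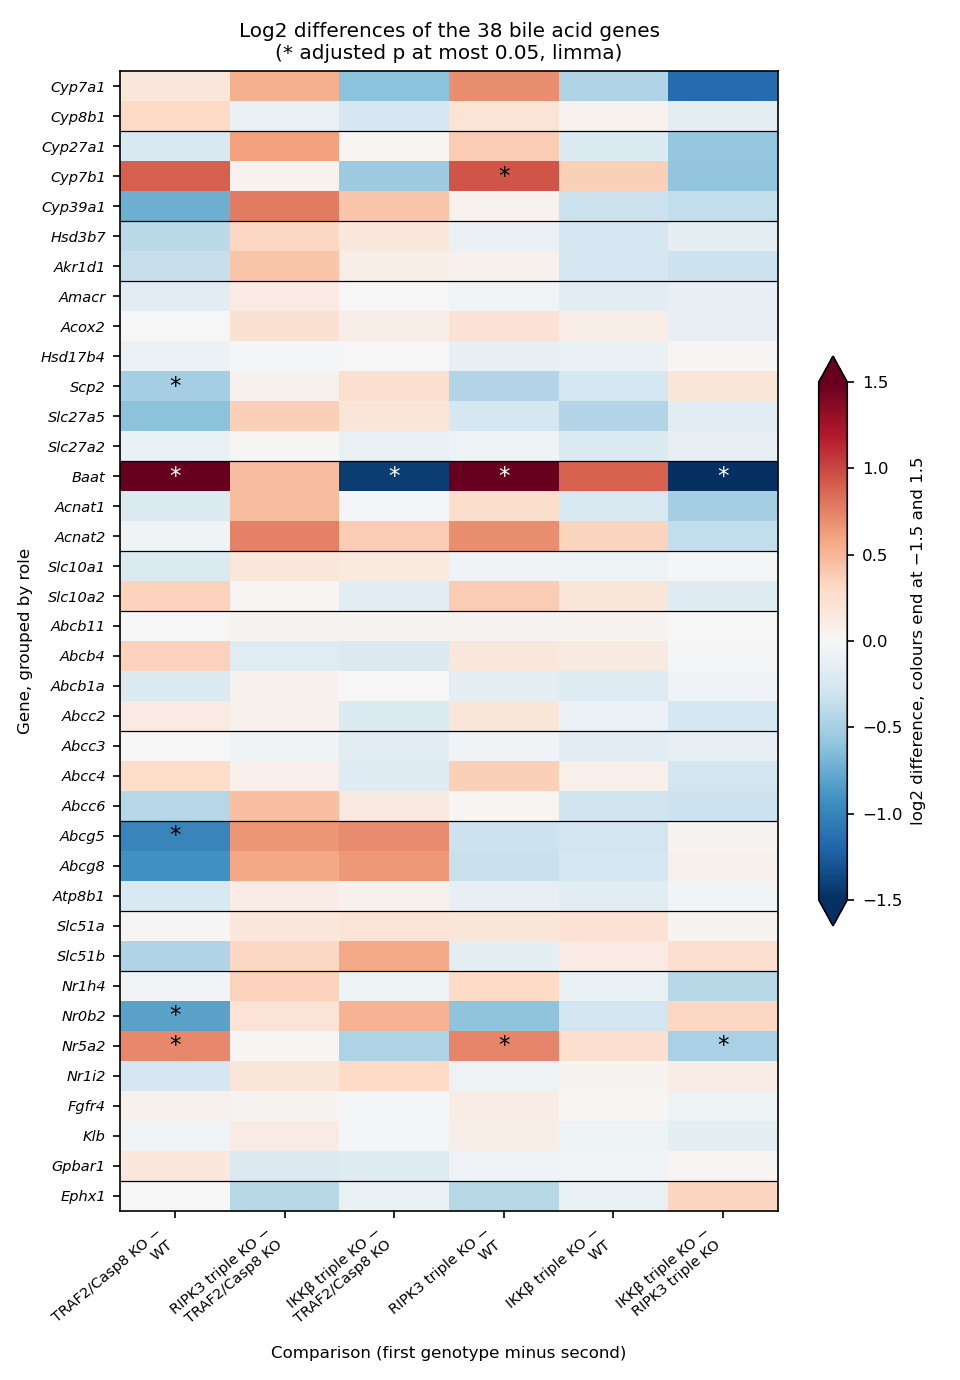
Log2 difference (first genotype minus second) of each of the 38 genes in the 6 comparisons, with the colour scale ending at -1.5 and 1.5. Rows stand in list order with a line where the role changes. The canalicular and the basolateral exporters each fall into separate blocks. An asterisk marks an adjusted p of limma of at most 0.05. Baat carries 4 of the 11 asterisks and Nr5a2 carries 3.

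Baat, the enzyme that conjugates bile acids, was 4.97-fold higher in TRAF2/Casp8 KO than in WT. Its log2 signals were 6.65, 6.17, 6.01 and 6.03 in WT and 8.50, 8.41, 8.69 and 8.53 in TRAF2/Casp8 KO. They were 8.78, 9.01, 9.19 and 8.99 in RIPK3 triple KO, with 6.80, 7.57, 6.80 and 7.25 in IKKβ triple KO. No array of a genotype overlapped another genotype, and the order was WT, IKKβ triple KO, TRAF2/Casp8 KO and RIPK3 triple KO. The log2 difference from WT was 2.31 ± 0.17 (SE, n = 4 and 4) in TRAF2/Casp8 KO (limma adjusted p = 3.89e-06) and 2.78 ± 0.17 in RIPK3 triple KO (limma adjusted p = 4.77e-07). For IKKβ triple KO it was 0.89 (95% interval 0.52 to 1.26), which missed the threshold (limma adjusted p = 0.158). IKKβ triple KO fell short of TRAF2/Casp8 KO in Baat signal, with a log2 difference of -1.43 ± 0.17 (limma adjusted p = 0.000913), and of RIPK3 triple KO, with -1.89 ± 0.17 (limma adjusted p = 3.78e-05). The step from TRAF2/Casp8 KO to RIPK3 triple KO, 0.46, missed the threshold (limma adjusted p = 0.376) although the arrays did not overlap. The 4 differences past the threshold stayed there under every alternative run on them.

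Acnat1 and Acnat2, acyltransferases of the same gene family, lie next to Baat on chromosome 4 in RefSeq (GRCm38.p6), with no other protein-coding gene between Acnat2 and Acnat1 or between Acnat1 and Baat. Neither passed the threshold in any comparison. In TRAF2/Casp8 KO against WT the log2 difference was -0.22 for Acnat1 (95% interval -0.53 to 0.08) and -0.05 for Acnat2 (-0.55 to 0.44), beside 2.31 for Baat. Acnat1 lay at 10.15 ± 0.14 in WT, 9.93 ± 0.28 in TRAF2/Casp8 KO, 10.41 ± 0.16 in RIPK3 triple KO, with 9.91 ± 0.22 in IKKβ triple KO (mean ± SD, n = 4). Its arrays in RIPK3 triple KO, 10.24 to 10.56, stood above the 9.66 to 10.19 of IKKβ triple KO (difference -0.50, limma adjusted p = 0.104). Acnat2 was highest in RIPK3 triple KO, at 7.96 ± 0.37 against 7.21 ± 0.19 in TRAF2/Casp8 KO, where the arrays did not overlap (0.75, limma adjusted p = 0.268).

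**Figure D2:**
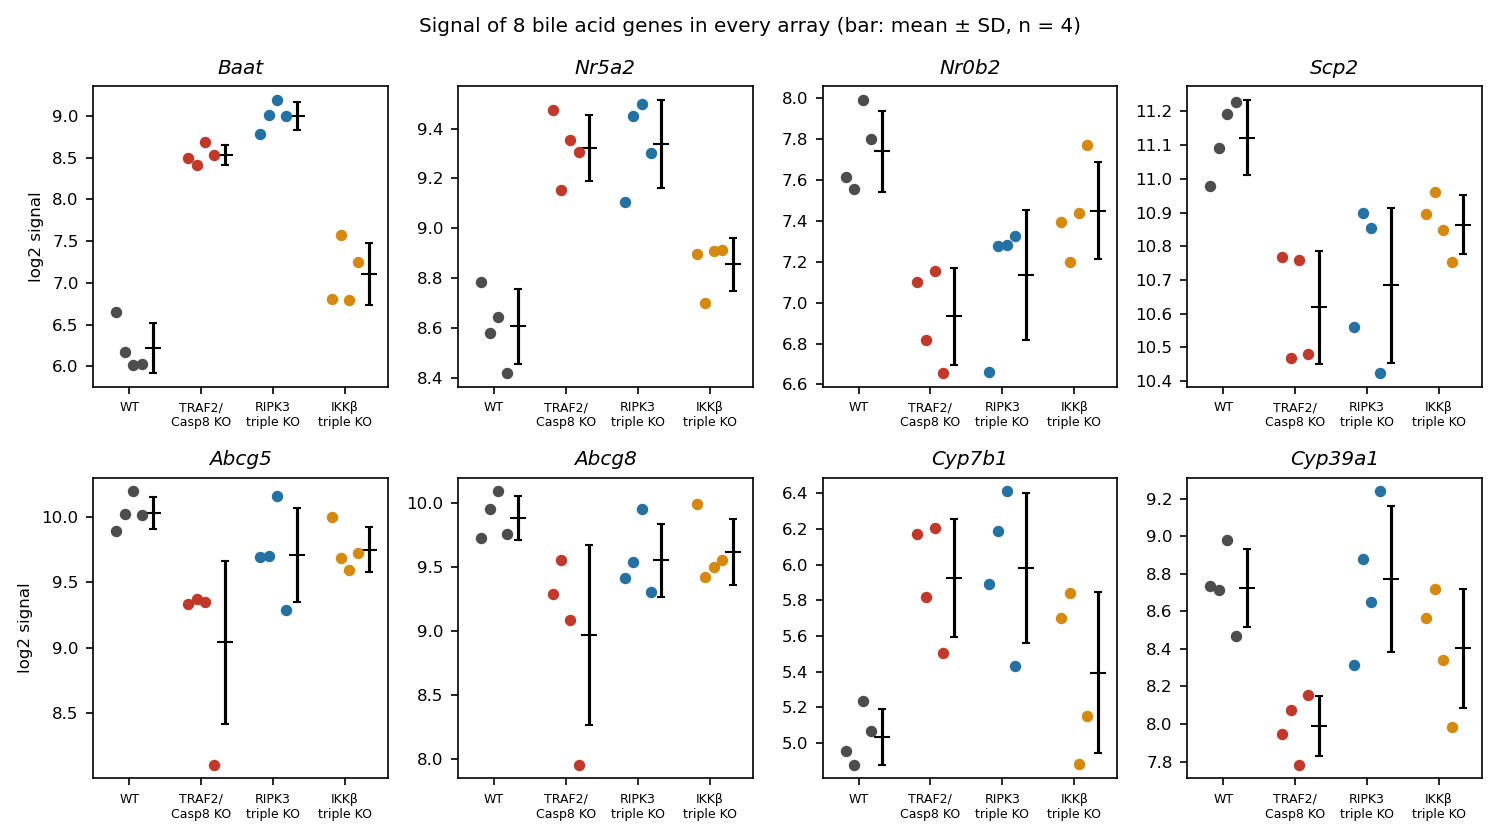
Log2 signal of Baat, Nr5a2, Nr0b2, Scp2, Abcg5, Abcg8, Cyp7b1 and Cyp39a1, 1 point per array (vertical axis, its range set per gene) for the 4 genotypes (horizontal axis), with a bar for the mean ± SD of 4 animals. Baat falls into 4 separate groups of points, and 1 TRAF2/Casp8 KO point of Abcg5 and of Abcg8 lies far below the other 15.

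Among the receptors and regulators, Nr5a2 and Nr0b2 moved in opposite directions in TRAF2/Casp8 KO. Nr5a2 (LRH-1), a nuclear receptor that activates bile acid synthesis genes, had log2 signals of 8.78, 8.58, 8.64 and 8.42 in WT and 9.47, 9.15, 9.36 and 9.31 in TRAF2/Casp8 KO. It had 9.11, 9.45, 9.50 and 9.30 in RIPK3 triple KO, with 8.90, 8.70, 8.91 and 8.91 in IKKβ triple KO. All RIPK3 triple KO and TRAF2/Casp8 KO arrays lay above the rest, while WT and IKKβ triple KO overlapped. Nr5a2 rose by 0.72 ± 0.11 on the log2 scale in TRAF2/Casp8 KO against WT (1.64-fold, limma adjusted p = 0.00156) and stood 0.73 above WT in RIPK3 triple KO (1.66-fold, limma adjusted p = 0.00155), and both held under every alternative run on them other than a minimum fold of 2. With the Ikkβ deletion it stood -0.49 from RIPK3 triple KO (limma adjusted p = 0.0347) and -0.47 from TRAF2/Casp8 KO, which missed the threshold (limma adjusted p = 0.0611). The call between the triple knockouts was lost without any 1 of replicates 2, 3 and 4 of either genotype, with an adjusted p of up to 0.108 over all alternatives.

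Nr0b2 (SHP), the corepressor that holds LRH-1 in check, had log2 signals of 7.61, 7.55, 7.99 and 7.80 in WT and 7.10, 6.82, 7.15 and 6.66 in TRAF2/Casp8 KO. Its signals were 6.66, 7.28, 7.28 and 7.32 in RIPK3 triple KO, with 7.39, 7.20, 7.44 and 7.77 in IKKβ triple KO. All WT arrays stood above all of TRAF2/Casp8 KO and of RIPK3 triple KO, and IKKβ triple KO overlapped WT but not TRAF2/Casp8 KO. Nr0b2 fell by 0.81 ± 0.17 on the log2 scale in TRAF2/Casp8 KO (a difference of -0.81, 1.75-fold lower, limma adjusted p = 0.0193). For RIPK3 triple KO against WT the difference was -0.60 (limma adjusted p = 0.082), and for IKKβ triple KO against TRAF2/Casp8 KO it was 0.52 (limma adjusted p = 0.26). Leaving out TRAF2/Casp8 KO replicate 4, WT replicate 3 or WT replicate 4 ended the call in TRAF2/Casp8 KO. Over all single arrays left out the difference ran from -0.88 to -0.71, and the adjusted p reached 0.0734.

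The 5 other receptors and regulators did not pass in any comparison with the main settings. Nr1h4 (FXR), the bile acid receptor upstream of Nr0b2, differed by -0.04 between TRAF2/Casp8 KO and WT (95% interval -0.27 to 0.19). Its highest mean was 9.70 ± 0.21, in RIPK3 triple KO, against 9.28 ± 0.06 in IKKβ triple KO, and those arrays did not overlap (-0.42, limma adjusted p = 0.0718). That difference passed under some alternatives but not all, among them a further quantile normalisation (-0.43, limma adjusted p = 0.0447). Nr1i2 (PXR), a sensor of bile acids and foreign compounds, had group means of 8.23 to 8.52, and Fgfr4 and its partner Klb, the hepatic receptor for FGF15, had means of 7.83 to 7.94 and of 8.56 to 8.71. Gpbar1, the membrane bile acid receptor of non-parenchymal cells and bile ducts, had means of 4.74 to 4.96.

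Of the sterol hydroxylases of the 2 pathways, Cyp7b1 alone passed, and in 1 comparison. Cyp7a1, the rate-limiting enzyme of the classic pathway, varied most within each knockout genotype: it ran from 7.64 to 8.04 in WT, 7.21 to 9.02 in TRAF2/Casp8 KO, 7.53 to 9.63 in RIPK3 triple KO and 6.39 to 8.34 in IKKβ triple KO. All 4 genotypes overlapped. Its 95% intervals were correspondingly wide, from -0.86 to 1.19 around 0.17 in TRAF2/Casp8 KO against WT, and the largest difference, -1.15 between the triple knockouts, had a limma adjusted p of 0.269. Cyp8b1, which sets the share of cholic acid, lay at 9.35 ± 0.17 in WT and 9.65 ± 0.12 in TRAF2/Casp8 KO, without overlap (0.30, limma adjusted p = 0.314).

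Cyp7b1, the oxysterol hydroxylase of the alternative pathway, had log2 signals of 4.96, 4.88, 5.24 and 5.07 in WT and 6.17, 5.82, 6.21 and 5.50 in TRAF2/Casp8 KO. It had 5.89, 6.19, 6.41 and 5.43 in RIPK3 triple KO, with 5.70, 5.84, 4.88 and 5.15 in IKKβ triple KO. The WT arrays lay below all of RIPK3 triple KO and of TRAF2/Casp8 KO, and IKKβ triple KO overlapped both ranges. These WT signals, 4.88 to 5.24, lay close to the array medians (4.90 to 5.05). The difference from WT was 0.95 ± 0.23 in RIPK3 triple KO (1.93-fold, limma adjusted p = 0.04999) and 0.89 ± 0.23 in TRAF2/Casp8 KO (1.86-fold, limma adjusted p = 0.0645), on either side of the threshold. The first call was lost without any 1 array of the 2 genotypes other than RIPK3 triple KO replicate 4, with an adjusted p of up to 0.141.

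Cyp39a1, an oxysterol hydroxylase specific for a cholesterol derivative from brain, stood the other way, at 7.99 ± 0.16 in TRAF2/Casp8 KO against 8.72 ± 0.21 in WT and 8.77 ± 0.39 in RIPK3 triple KO. The TRAF2/Casp8 KO arrays, 7.78 to 8.15, lay below all arrays of those 2 genotypes. Neither difference passed, at -0.73 against WT (limma adjusted p = 0.0583) and 0.78 on adding the Ripk3 deletion (limma adjusted p = 0.131). Cyp27a1, the mitochondrial sterol hydroxylase, lay at 7.76 ± 0.07 in TRAF2/Casp8 KO and 8.37 ± 0.21 in RIPK3 triple KO, again without overlap (0.61, limma adjusted p = 0.182). The ring-modifying enzymes Hsd3b7 and Akr1d1 differed from WT by -0.41 and -0.35 in TRAF2/Casp8 KO, with limma adjusted p of 0.104 and 0.359. A second probe set of Hsd3b7 gave -0.41 as well.

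Scp2, whose products are the peroxisomal thiolase that completes side chain shortening and a sterol carrier protein, was the 1 of 6 side chain genes that passed. Its log2 signals were 10.98, 11.09, 11.19 and 11.23 in WT and 10.77, 10.47, 10.76 and 10.48 in TRAF2/Casp8 KO. They were 10.56, 10.90, 10.86 and 10.42 in RIPK3 triple KO, with 10.90, 10.96, 10.85 and 10.75 in IKKβ triple KO. Every WT array stood above every array of the 3 other genotypes. Scp2 fell by 0.50 ± 0.11 on the log2 scale in TRAF2/Casp8 KO (a difference of -0.50, 1.42-fold lower, limma adjusted p = 0.0319). The difference from WT was -0.44 with the Ripk3 deletion (limma adjusted p = 0.0605) and -0.26 with the Ikkβ deletion (limma adjusted p = 0.773). Leaving out TRAF2/Casp8 KO replicate 2 or 4, or any of WT replicates 2 to 4, ended the call in TRAF2/Casp8 KO, with an adjusted p of up to 0.109.

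Slc27a5, which activates returning bile acids for conjugation, lay at 9.99 ± 0.21 in WT and 9.37 ± 0.29 in TRAF2/Casp8 KO, without overlap (-0.62, limma adjusted p = 0.111). Slc27a2, an acyl-CoA synthetase of the side chain, and the peroxisomal enzymes Amacr, Acox2 and Hsd17b4 differed by -0.16 to -0.01 between TRAF2/Casp8 KO and WT. Acox2, the branched-chain oxidase, was 9.77 ± 0.02 in IKKβ triple KO against 9.68 ± 0.07 in WT, where the arrays did not overlap but the difference was only 0.09 (limma adjusted p = 0.923).

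Of the 7 canalicular exporters, Abcg5 passed in TRAF2/Casp8 KO against WT. Its log2 signals were 9.89, 10.02, 10.19 and 10.01 in WT and 9.33, 9.37, 9.35 and 8.11 in TRAF2/Casp8 KO. They were 9.69, 9.70, 10.16 and 9.29 in RIPK3 triple KO, with 9.997, 9.69, 9.59 and 9.72 in IKKβ triple KO. Abcg8, its partner in the sterol exporter and its divergent neighbour in the sequence above, had 9.72, 9.96, 10.09 and 9.76 in WT and 9.29, 9.56, 9.09 and 7.96 in TRAF2/Casp8 KO.

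For both genes every TRAF2/Casp8 KO array lay below every WT array, and TRAF2/Casp8 KO replicate 4, the array with another name prefix, lay lowest of all 16. Abcg5 fell by 0.99 ± 0.24 on the log2 scale (a difference of -0.99, 1.98-fold lower, limma adjusted p = 0.0481), and Abcg8 was lower by -0.91 ± 0.27 without passing (limma adjusted p = 0.0995). Without TRAF2/Casp8 KO replicate 4 the differences were -0.68 for Abcg5 (limma adjusted p = 0.0594) and -0.57 for Abcg8 (limma adjusted p = 0.165), and the Abcg5 call was also lost without any other array of the 2 genotypes except TRAF2/Casp8 KO replicate 2. On adding the Ripk3 or Ikkβ deletion the Abcg5 difference was 0.67 or 0.71, and neither passed (limma adjusted p = 0.361 and 0.296).

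**Figure D3:**
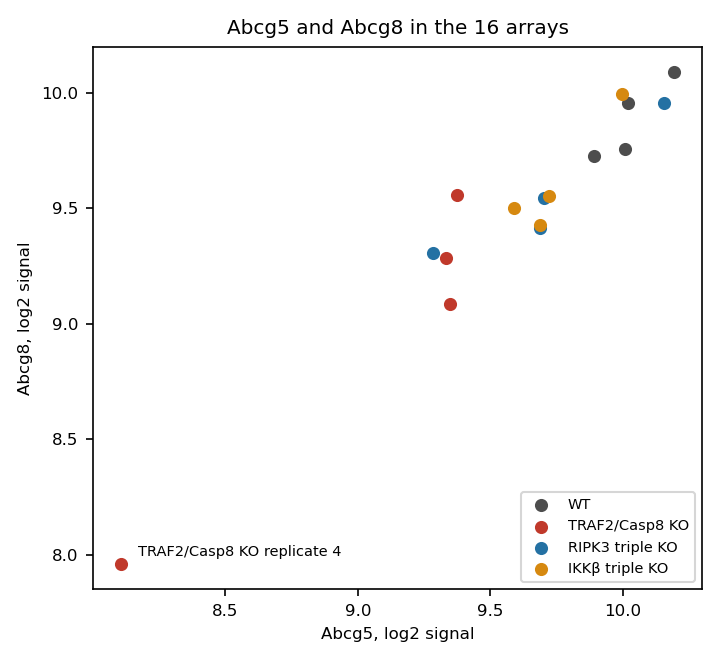
Log2 signal of Abcg8 (vertical axis) against that of Abcg5 (horizontal axis), 1 point per array, coloured by genotype. TRAF2/Casp8 KO replicate 4, at 8.11 and 7.96, lies far from the other 15 arrays, which run from 9.29 to 10.19 and from 9.09 to 10.09.

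Abcb11 (BSEP), the bile salt export pump, showed the smallest differences of the exporters over the 6 comparisons. Its group means were 10.74 ± 0.09 in WT, 10.74 ± 0.13 in TRAF2/Casp8 KO, 10.78 ± 0.16 in RIPK3 triple KO, with 10.78 ± 0.10 in IKKβ triple KO. The 95% interval of the difference between TRAF2/Casp8 KO and WT was -0.20 to 0.20, so changes of more than 1.15-fold lie outside it. Abcb4, which moves phosphatidylcholine into bile, lay at 10.05 ± 0.22 in TRAF2/Casp8 KO and 9.70 ± 0.03 in WT, without overlap (0.35, limma adjusted p = 0.0807). Abcc2, the exporter of conjugated organic anions, the drug exporter Abcb1a and the phospholipid flippase Atp8b1 differed from WT by 0.12, -0.20 and -0.23 in TRAF2/Casp8 KO, and none passed.

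No uptake carrier and no basolateral exporter passed in any comparison. Slc10a1 (NTCP), the main carrier for conjugated bile acids from blood, had group means of 11.82 to 12.04. Abcc6, an exporter of the basolateral membrane, lay at 8.65 ± 0.09 in WT, 8.23 ± 0.16 in TRAF2/Casp8 KO and 8.68 ± 0.14 in RIPK3 triple KO, with the TRAF2/Casp8 KO arrays below all of both (-0.43, limma adjusted p = 0.0682 against WT, and 0.45, limma adjusted p = 0.157). Abcc3 and Abcc4, which export bile acids to blood in cholestasis, differed from WT by 0.00 and 0.27 in TRAF2/Casp8 KO, with limma adjusted p of 0.997 and 0.591. The Abcc3 value depends on WT replicate 1, at 8.79. The other WT arrays lay at 8.03 to 8.06, and those of TRAF2/Casp8 KO at 8.06 to 8.32. Of the organic solute transporter, Slc51b had means of 7.57 to 8.13. Its partner Slc51a and Slc10a2, the carrier of ileum and bile ducts, lay below the array medians (4.90 to 5.05) on all 16 arrays, at 2.82 to 3.63 and 2.13 to 2.84. Ephx1, an epoxide hydrolase also proposed as a carrier, was lower in RIPK3 triple KO (9.65 ± 0.16) than in TRAF2/Casp8 KO (10.07 ± 0.15) or WT (10.06 ± 0.21), without overlap and without passing (limma adjusted p = 0.236 and 0.106).

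In TRAF2/Casp8 KO against WT the arrays of 13 of 38 members did not overlap, 5 higher and 8 lower (11.6% of all genes, 6.12% higher and 5.44% lower). Of the 38 differences 15 were above 0 (39.5%, against 47.3% of all genes), and the median was -0.07, against -0.01 over all genes.

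In RIPK3 triple KO against TRAF2/Casp8 KO, where none passed, the signs leaned to one side. Of 38 differences 32 were above 0 (84.2%, against 49.6% of all genes), with a median of 0.14 against -0.00, and the count ran from 26 to 34 and the median from 0.10 to 0.21 over the alternatives. The lean was not particular to the 38 genes. Of 39 other genes of bile acid and cholesterol handling, described below, 33 were above 0 (median 0.14). The largest were Cyp39a1 (0.78), Acnat2 (0.75), Abcg5 (0.67) and Cyp27a1 (0.61), and the arrays of 6 members did not overlap: Cyp27a1, Cyp39a1, Baat, Acnat2 and Abcc6 higher and Ephx1 lower (6.87% of all genes). The means of 8 neutrophil and myeloid precursor markers were 7.10 to 8.94 in RIPK3 triple KO and 8.34 to 9.60 in TRAF2/Casp8 KO, with 8 of 8 differences below 0. Those of 5 erythroid markers were 5.79 to 7.97 and 6.26 to 7.94. The hepatocyte marker means overlapped, at 12.09 to 12.49 and 12.09 to 12.30, with 7 of 10 above 0, and the part of cell composition in these signs was not tested.

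On adding the Ikkβ deletion to TRAF2/Casp8 KO 19 of 38 differences were above 0 (50%, against 49.9% of all genes), with a median of 0.00. The arrays of 4 members did not overlap (7.48% of all genes), Abcg5 and Nr0b2 higher and Baat and Nr5a2 lower. For RIPK3 triple KO against WT 7 members did not overlap (9.08% of all genes), and 21 of 38 differences were above 0 (55.3%, against 47.9% of all genes). For IKKβ triple KO against WT 3 did not overlap, Acox2, Baat and Scp2 (3.92% of all genes), and 14 were above 0 (36.8%, against 46.2% of all genes). Between the triple knockouts 5 did not overlap, all lower with the Ikkβ deletion: Cyp27a1, Baat, Acnat1, Nr1h4 and Nr5a2 (9.01% of all genes, 5.33% lower). In that comparison 10 of 38 differences were above 0 (26.3%, against 48% of all genes), with a median of -0.13 against -0.01. Of the markers there, 8 of 8 of neutrophils and myeloid precursors were above 0 (median 1.08). Of these 8, 6 had an unadjusted p at most 0.05 (16.7% of all genes). Above 0 were also 5 of 5 erythroid markers (1.02), but 0 of 9 cholangiocyte (-0.24) and 0 of 7 stellate markers (-0.16). Of the hepatocyte markers 6 of 10 were above 0 (0.03), unlike most of the 38 genes. The other lists had 4 of 5 lymphocyte (0.47), 3 of 5 endothelial (0.07), 3 of 8 macrophage (-0.21) and 2 of 5 enterocyte markers (-0.02) above 0. The part of cell composition in this lean was not tested.

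**Figure D4:**
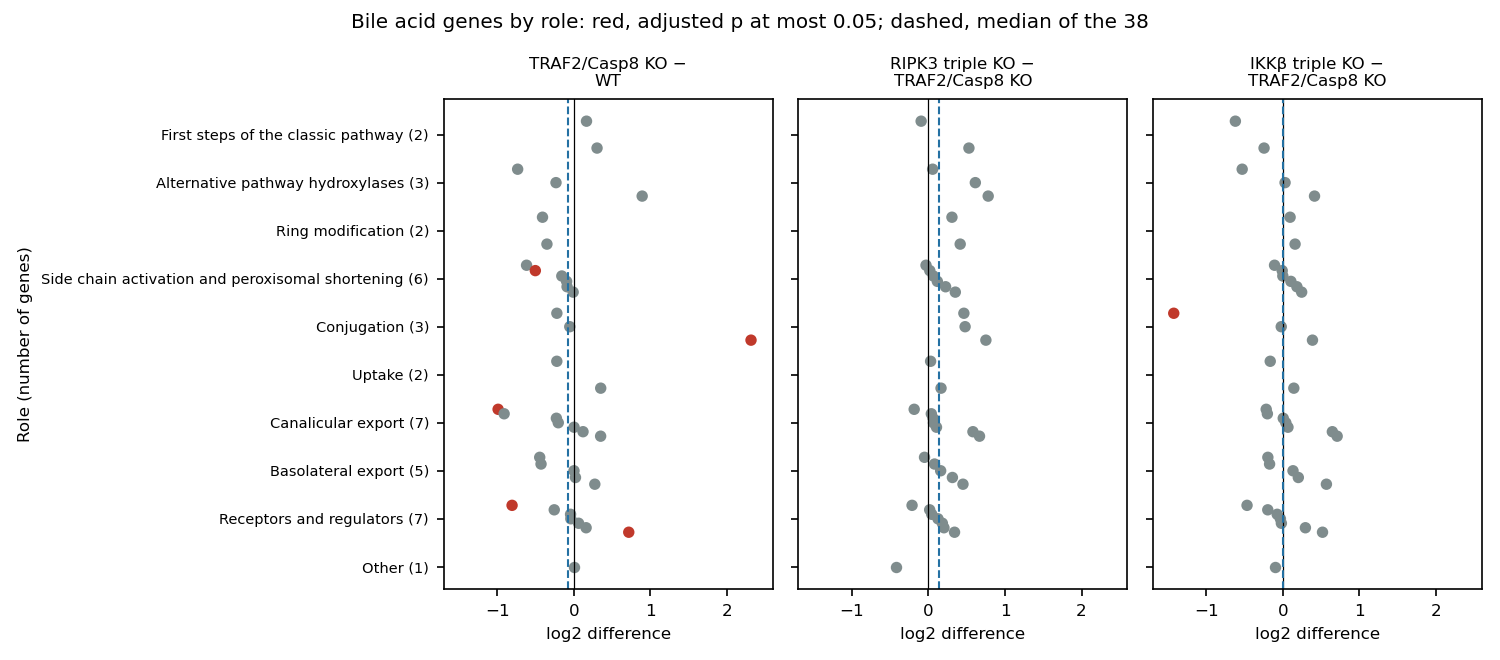
Log2 difference (horizontal axis) of each of the 38 genes in the 3 main comparisons, with the genes arranged by role (vertical axis, number of genes in brackets), red where the limma adjusted p is at most 0.05 and a dashed line at the median of the 38. The points lie mostly right of 0 in the middle panel, where 32 of 38 are above 0 and none is red.

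Of the 9 measured markers of bile duct cells, at most 4 passed the threshold in any 1 comparison. The mean of 9 cholangiocyte markers was 4.998 to 5.23 in WT, 5.73 to 5.81 in TRAF2/Casp8 KO, 5.54 to 5.66 in RIPK3 triple KO and 5.06 to 5.53 in IKKβ triple KO. In TRAF2/Casp8 KO against WT 7 of 9 differences were above 0 and 2 below. Past the threshold 4 of 9 rose (3.31% of all genes passed), Sox9 (1.31), Cldn4 (1.76), Cldn7 (1.35) and Epcam (0.79). Krt19, a defining marker, did not pass. In IKKβ triple KO against TRAF2/Casp8 KO 6 of 9 differences were below 0 and 3 above. Past the threshold 3 of 9 fell (1.02% of all genes passed), Sox9, Cldn4 and Cldn7. Sox9 and Epcam also stood above WT in RIPK3 triple KO, and Sox9 was lower with the Ikkβ than with the Ripk3 deletion. On adding the Ripk3 deletion to TRAF2/Casp8 KO 1 of 9 fell, Cldn7 (-0.9997, limma adjusted p = 0.0117). The part of these cells in the differences of the 38 genes was not tested. The hepatocyte marker means of all genotypes overlapped, although 1 of 10, Asgr1, fell past the threshold in TRAF2/Casp8 KO. Against WT, 8 of 10 hepatocyte markers were below 0 in TRAF2/Casp8 KO (median -0.09). In RIPK3 triple KO 6 of 10 were below 0 (-0.06), and in IKKβ triple KO 9 of 10 (-0.04). Of 5 enterocyte markers Vil1 alone passed, higher than WT in TRAF2/Casp8 KO (0.99) and RIPK3 triple KO (0.59), and it fell on adding the Ikkβ deletion (-0.83). Of 5 lymphocyte markers Gzma was lower in RIPK3 triple KO than in WT (-0.70) and TRAF2/Casp8 KO (-0.62). No macrophage, neutrophil, erythroid, stellate or endothelial marker passed in any comparison in limma. In RIPK3 triple KO against WT, however, 8 of 8 neutrophil and myeloid precursor markers had an unadjusted p at most 0.05 (15.6% of all genes), all below WT.

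Other genes of bile acid and cholesterol handling were read from a list of 50, of which 39 were measured. Their differences were above 0 in 8 of 39 for TRAF2/Casp8 KO against WT (median -0.13). Between the triple knockouts 13 of 39 were above 0 (median -0.07). In TRAF2/Casp8 KO against WT 1 rose and 4 fell (3.31% of all genes passed, 2.17% higher and 1.14% lower). S1pr2, a membrane receptor for conjugated bile acids, rose by 0.93 on the log2 scale (1.91-fold, limma adjusted p = 0.00351). Cyp2b10, a target of the xenobiotic receptor CAR, differed by -1.84 (3.58-fold lower, limma adjusted p = 0.000231), and Slc22a7, an organic anion carrier, by -1.83 (3.56-fold lower, limma adjusted p = 0.00403). Rxra, the partner of FXR and other nuclear receptors, differed by -0.47 (limma adjusted p = 0.0042). The remaining gene, named after its values were seen, was the steroid dehydrogenase Hsd17b6, at -1.41 (limma adjusted p = 0.0107). On adding the Ripk3 deletion 1 of 39 passed (0.329% of all genes). It was Cyp2c70, the enzyme that makes muricholic acids in rodents, which rose by 0.68 (1.61-fold, limma adjusted p = 0.000716). On adding the Ikkβ deletion 0 of 39 passed in limma (1.02% of all genes), and 10 had an unadjusted p at most 0.05 (10.7% of all genes). RIPK3 triple KO differed from WT with 2 higher and 3 lower (3.11% of all genes passed). The lower ones included Hsd3b5, named after its values were seen (limma adjusted p = 0.04999). Its means, 2.19 against 2.78 in WT, lay below the array medians (4.90 to 5.05), and its arrays overlapped. IKKβ triple KO differed from WT in 0 in limma (0.0372% of all genes), with 8 at an unadjusted p at most 0.05 (6.45% of all genes). Between the triple knockouts 2 were lower with the Ikkβ deletion, Cyp2c70 (-0.64) and S1pr2 (-0.67), where 2% of all genes passed, 1.38% lower.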

How the data were processed

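Liver RNA of 16 mice was hybridised to Affymetrix arrays of the whole-transcript, one-colour kind, as read from the probe set names and the labelling kit. The authors deposited log2 values made with RMA, per the submitters' processing notes. The sources used here do not give its version or how probe sets were defined. All 16 value columns entered, and 0 were unused. Precision is limited by the number of arrays.

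The values were not normalised again and no probe set was removed. One model (lmFit and eBayes of limma 3.58.1, under R 4.3.3, with no trend, two-sided) held the 4 genotypes, and Benjamini-Hochberg adjustment ran over the 35556 probe sets with a threshold of 0.05; every adjusted p is from limma. The procedure was tested on simulated data. Promoter windows were read from RefSeq (GRCm38.p6) and motifs matched by letters.

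The 38 genes, the list of 50 further genes, the marker lists and the comparisons were chosen with earlier results of these data known. Members past the threshold in any comparison are given in every array. Of the further genes, up to 4 per main comparison with the smallest adjusted p are named, with Hsd17b6 and Hsd3b5 named after their values were seen. Of that list, 11 genes were not matched to a probe set of 1 symbol and are not analysed here.

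The alternatives were robust moderation with an intensity trend, fitting only the 2 genotypes compared, dropping the dimmest of 3 equal classes of probe sets, a further quantile normalisation, centring on the array median, 1 probe set for each gene, the mean of a gene's probe sets, array weights, a replicate block, the array name's letter as random block, at least 2-fold, and dropping single arrays. AGGTCA alone and TATAAA, and dropping WT replicate 1 and TRAF2/Casp8 KO replicate 4 together, were added after seeing the data. Plots were made in Python 3.11.15 with matplotlib 3.10.9.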

Additional observations from a re-analysis of the deposited data

Results flagged for a closer look

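In 152 groups of 4 arrays (38 genes in 4 genotypes), 10 had 1 array far from the other 3 by Dixon's criterion, where chance gives about 1 in 20 groups. TRAF2/Casp8 KO replicate 4, the array with another name prefix, was the low one for Hsd3b7 (log2 signal 9.33, others 9.72 to 9.80), Slc27a5 (8.94, others 9.48 to 9.56) and Abcg5 (8.11, others 9.33 to 9.37). WT replicate 1 was high for Abcc3 (8.79, others 8.03 to 8.06), and WT replicate 2 was low for Acnat2 (6.73, others 7.36 to 7.48). In RIPK3 triple KO, replicate 4 was low for Slc27a2 (12.05, others 12.22 to 12.25) and replicate 1 for Nr0b2 (6.66, others 7.28 to 7.32). In IKKβ triple KO, replicate 1 was high for Slc27a2 (12.44, others 11.88 to 11.96), replicate 4 was high for Nr1h4 (9.37, others 9.25 to 9.26) and replicate 2 was low for Nr5a2 (8.70, others 8.90 to 8.91).

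The effect of adding the Ikkβ deletion differed from that of adding the Ripk3 deletion for Baat and Nr5a2, tested in limma as the difference between the triple knockouts. For Baat the difference was -1.89 (limma adjusted p = 3.78e-05), lower in 4 of 4 IKKβ triple KO arrays than in any RIPK3 triple KO array. For Nr5a2 it was -0.49 (limma adjusted p = 0.0347), also without overlap, and that call was lost in 8 of 18 alternatives and also at a minimum fold of 2.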

How the results depend on the processing

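None of the 11 differences past the threshold reversed under any alternative; of their 203 alternative values, the minimum fold of 2 not counted, 166 stayed past the threshold and 37 did not. With that minimum only the 4 of Baat stayed. The 4 of Baat stayed under every alternative, and the 2 of Nr5a2 against WT under every alternative but that minimum. Of 217 differences that did not pass, 13 passed under some alternative, among them Nr5a2 in IKKβ triple KO against TRAF2/Casp8 KO, Nr1h4 between the triple knockouts, and Cyp39a1, Cyp7b1, Abcg8, Abcb4 and Abcc6 in TRAF2/Casp8 KO against WT. The count of members past the threshold in TRAF2/Casp8 KO against WT, 5, became 10 with 1 probe set per gene, 11 with the mean of a gene's probe sets, 11 with array weights and 1 with a minimum fold of 2. It ran from 2 to 7 with 1 array left out, being 2 without WT replicate 3, WT replicate 4 or TRAF2/Casp8 KO replicate 4, 3 without WT replicate 2, and 2 without both WT replicate 1 and TRAF2/Casp8 KO replicate 4. With 1 probe set per gene fewer tests are corrected for. In IKKβ triple KO against TRAF2/Casp8 KO the count, 1, was 2 with an intensity trend and robust moderation, without the dimmest part of the probe sets, with 1 probe set per gene, with the mean of probe sets and with array weights, and 1 to 2 with 1 array left out. In RIPK3 triple KO against WT the count, 3, was 5 with 1 probe set per gene or their mean, 1 with a minimum fold of 2 and 2 to 4 with 1 array left out. In IKKβ triple KO against WT the count, 0, was 1 (Baat) with 1 probe set per gene, their mean or array weights, and 0 with any array left out. Between the triple knockouts the count, 2, was 1 in a model of the 2 genotypes alone, 4 with array weights, 1 with a minimum fold of 2 and 1 to 3 with 1 array left out. It was 3, with Nr1h4 added, after a further quantile normalisation or centring on the array median, and with 1 probe set per gene or their mean. Adding the Ripk3 deletion gave 0 throughout. The replicate block gave 1 between the triple knockouts, where Nr5a2 was lost (limma adjusted p = 0.0513), 2 in RIPK3 triple KO against WT, and 5, 0, 1 and 0 in the other comparisons. The labels do not say that equal replicate numbers pair animals, and in no comparison did every pair of arrays with the same number correlate above 0.1 in their deviations from the group means. In IKKβ triple KO against TRAF2/Casp8 KO 3 of 4 pairs did (-0.02 to 0.11), between the triple knockouts all 4 were above 0 (0.03 to 0.08), and over all comparisons the range was -0.10 to 0.16. The cause of these shifts was not tested. All signals carry the limit of 4 arrays a genotype, and the genes with the dimmest signals, Slc10a2 and Slc51a, lie where array signals say least.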
